A study of Mus musculus with 14 samples.

Results

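The 7 total homogenates of mouse brainstem in this series carry library numbers in separate ranges. Numbers up to 11 hold 4 homogenates (animals B and C with tau, H and I with EYFP), and numbers of 17 and above hold 3 (animal K with EYFP, L and M with tau). They are called here the low-numbered and the high-numbered libraries, and together they are 7 of the 14 libraries. The other 7 are immunoprecipitates (IP) of the same animals, and each homogenate was taken before that step (pre-IP). The labels do not say what the ranges stand for, so they are used only as numbers and are not called batches.

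All 7 animals had the genotype TH-Cre;Slc6a2-eGFP/Rpl10a on a C57Bl/6 background and were infused in the locus coeruleus at 2 to 3 months of age. The infusion held human tau with the P364S substitution in animals B, C, L and M, and enhanced yellow fluorescent protein (EYFP) in H, I and K. Cre was driven by the tyrosine hydroxylase promoter, and the tagged ribosomal protein L10a by the noradrenaline transporter gene. The labels name separate animals. B, I and L are labelled male and C, H, K and M female.

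The brainstem joins the spinal cord to the forebrain. It holds the noradrenergic locus coeruleus, the serotonergic raphe nuclei and the motor nuclei of the cranial nerves. The cerebellum lies on its back, the thalamus in front of it, and the pituitary gland beneath the hypothalamus. A gene of a neighbouring tissue in a bulk homogenate may differ because fewer cells of that tissue were taken or because each cell held less of the RNA, and these cannot be told apart in bulk RNA.

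Counts on genes summed to between 41843489 and 52003118 in the low-numbered and between 54821284 and 62043336 in the high-numbered libraries. The floor of 3 counts corresponded to 0.0483 to 0.0717 CPM (counts per 1000000 counts on genes), and it covers counting error only. Brainstem identity was present throughout, as Hoxb5, a hindbrain patterning gene, lay between 37.6 and 58.7 CPM and the glycine transporter gene Slc6a5 between 35.9 and 91.2 CPM. The libraries of 2 animals went against their labels. The EYFP library of K held 408 counts of the tau construct, against 8 in H and 2 in I, while the tau libraries held 3527 to 11358. The library of M, labelled female, held 0 counts of Xist and 674 counts of 4 Y-linked genes, whereas the other libraries labelled female held 32 to 44 Xist counts and at most 4 Y-linked counts. The IP library of M held both, with 21 Xist and 1153 Y-linked counts. Both animals are among the high-numbered libraries, and most calls are lost when K or M is left out. Of 67 named genes that edgeR called, 15 were still called without K and 16 without M. The loss was no smaller without a low-numbered library: 1 was still called without B, 11 without C, 12 without H and 0 without I. Without L, 63 were still called. Replicates of a range differed by more than counting error, since even C and I, the most alike, gave a chi-square of 21.3 per degree of freedom over genes.

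The question was which tissues, cell types and functions differed between the ranges. In the high-numbered homogenates, 6 of 7 hormone genes of the anterior pituitary were called higher, by 3.13 to 6.14 on the log2 scale. The seventh, the entry named Lhb, which has no annotated position, was at -0.53 without a call. Smaller increases were called in 1 of 9 serotonergic, 2 of 12 noradrenergic and 3 of 12 cholinergic and motor neuron genes. Decreases were called in 2 of 19 forebrain, 4 of 15 cerebellar granule cell, 3 of 14 Purkinje cell and 2 of 11 mitochondrially encoded genes. With treatment as a further term, edgeR called 701 of 19197 genes at an adjusted p under 0.05, 3.65% of those tested, of which 275 were higher (1.43%) and 426 lower (2.22%) in the high-numbered libraries. Most changes were small, with a median fold of 1.5 among genes called higher and 1.56 among genes called lower. At least 2-fold changes were seen in 78 called genes (0.406% of genes tested). The libraries of the ranges did not overlap in 644 of the 701 called genes, which are 3.35% of the 19197 tested. Over all 19197 genes tested, called or not, they did not overlap in 4064 (21.2%). Calls and overlap were read from the same values. Adjusted p-values of called genes lay between 0.0151 and 0.05. Leaving out a single library moved the number of calls to 1 (without B), 78 (without C), 92 (without H), 1 (without I), 138 (without K), 1190 (without L) or 113 (without M). In the tau animals alone 12 genes were called, mostly other genes. Only 1 of the 12 was among the 701, and 0 of the 67 named genes kept their call. With the sex label as a further covariate, M entered as female, 16 genes were called. An offset by gene length, chosen after seeing the data, gave 781 calls (4.07%), 405 higher and 376 lower.

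The first principal component of the homogenates, with 30.3% of the variance, separated the ranges. The low-numbered libraries had scores from -31.4 to -16.7, K and M had 43.4 and 42.4, and L lay between them and the low-numbered libraries at 12.2. The second component, with 19.3%, set L (-47.2) against K (31.3).

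The anterior pituitary secretes peptide hormones, each from a cell type of its own: growth hormone (Gh) from somatotrophs, prolactin (Prl) from lactotrophs, adrenocorticotropin cut from the Pomc precursor in corticotrophs, and thyrotropin and the gonadotropins from cells that share the alpha subunit Cga. Transcription of Gh, Prl and the thyrotropin beta gene Tshb depends on the factor POU1F1 (Pit-1). The RefSeq table (GRCm38.p6) held promoters of 5 of the called hormone genes, Prl, Cga, Pomc, Tshb and Fshb. Those of Prl, Cga and Pomc are shown because their RNAs were all called higher and each comes from another hormone cell type. Each run holds 250 bases before and 50 bases from the annotated start, with matches to TATNCAT on either strand in capitals. The Prl promoter lies at chr13:27057320-27057619, the Cga promoter at chr4:34893529-34893828 and the Pomc promoter at chr12:3954695-3954994, all on the plus strand.
Prl: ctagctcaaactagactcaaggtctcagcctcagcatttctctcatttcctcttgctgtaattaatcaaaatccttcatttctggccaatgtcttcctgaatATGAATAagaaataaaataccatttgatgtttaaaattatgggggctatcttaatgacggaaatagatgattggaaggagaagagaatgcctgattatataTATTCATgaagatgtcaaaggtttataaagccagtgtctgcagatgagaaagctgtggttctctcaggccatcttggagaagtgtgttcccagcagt
Cga: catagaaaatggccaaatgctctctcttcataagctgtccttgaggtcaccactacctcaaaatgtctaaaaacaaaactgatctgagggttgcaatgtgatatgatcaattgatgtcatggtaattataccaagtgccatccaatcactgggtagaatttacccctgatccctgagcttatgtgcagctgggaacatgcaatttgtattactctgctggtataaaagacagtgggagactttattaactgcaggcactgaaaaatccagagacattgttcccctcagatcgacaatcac
Pomc: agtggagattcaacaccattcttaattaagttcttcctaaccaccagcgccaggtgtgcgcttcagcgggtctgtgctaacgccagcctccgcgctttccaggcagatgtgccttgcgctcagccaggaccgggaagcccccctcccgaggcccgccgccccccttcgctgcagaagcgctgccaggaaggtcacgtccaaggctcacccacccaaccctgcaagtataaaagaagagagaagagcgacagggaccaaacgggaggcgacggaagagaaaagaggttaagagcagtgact
Prl held 2 matches to TATNCAT, the other 4 held 0, Tshb among them, and 8.84% of the 32851 promoters of this length held at least 1. Each of the 5 held TATAAA on at least 1 strand, the letters of a TATA box, which 13.6% of all promoters held. A match is a description of letters and no evidence of binding, and no match says only that these letters are not in this window.

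Of 7 pituitary hormone genes, 6 were called higher in the high-numbered libraries, and 0 lower. Their median log2 fold change was 4.41, against 0.01 over all genes tested. Growth hormone (Gh, ENSMUSG00000020713.6, chromosome 11, 106300271 to 106301865, GRCm38) had 22.6, 12.1, 27.4 and 3.49 CPM in B, C, H and I, and 224, 4437 and 558 CPM in K, L and M. All 3 high-numbered libraries lay above all 4 low-numbered ones, and L stood far above the rest. The log2 fold change was 6.14 (SE 1.00, edgeR adjusted p 0.0216), and without L it was 4.57 (edgeR adjusted p 0.000692). It was not called without B (5.85, edgeR adjusted p 0.0892) or without I (6.03, edgeR adjusted p 0.0647).

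Prolactin (Prl, chromosome 13, 27057570 to 27065205) had 24.6, 22.4, 53.8 and 0.922 CPM in B, C, H and I, against 410, 963 and 177 CPM in K, L and M. Again L was highest and I lowest, with no overlap between the ranges. The log2 fold change was 4.41 (SE 0.88, edgeR adjusted p 0.0313). It was not called without B, C, I or K, when its edgeR adjusted p lay between 0.0569 and 0.111 at log2 fold changes of 4.13 to 4.59.

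Pomc (chromosome 12, 3954951 to 3960642) had 29.5, 16.4, 19.1 and 9.85 CPM in B, C, H and I, and 125, 279 and 96.2 CPM in K, L and M. The spread among the high-numbered libraries was smaller than for Gh. Its log2 fold change was 3.13 (SE 0.34, edgeR adjusted p 0.0151). Pomc was also the single gene past the threshold without B, in a fit of all 14 libraries together, and when a change beyond 1.5-fold was tested, and it fell short of the threshold without I (edgeR adjusted p 0.0569).

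Of the subunit genes, Cga, Tshb and Fshb were highest in L and next in M, as Gh was, whereas K was second for Prl and Pomc. Cga, the subunit common to thyrotropin and the gonadotropins, had 0.0201 to 1.09 CPM in the low-numbered libraries and 3.68, 106 and 12.1 CPM in K, L and M, a log2 fold change (SE) of 5.75 (0.84; edgeR adjusted p 0.0179). Tshb had 0.346 to 0.860 CPM against 1.28, 28.2 and 3.64 CPM, and edgeR called it at 3.92 with SE 0.96 on the log2 scale (adjusted p 0.0487). The call of Tshb was lost without M (edgeR adjusted p 0.0508), and also without B, C, H or I (0.0596 to 0.184). The follicle-stimulating hormone gene Fshb was high in L (34.0 CPM) and M (3.64 CPM) alone, and at 0.0365 CPM in K it was below B (0.460 CPM), so the ranges overlapped although edgeR called it (log2 fold change 5.84, SE 1.15, adjusted p 0.0306). The entry named Lhb, for luteinizing hormone, did not share this pattern. It had 0.541 to 1.15 CPM against 1.04, 0.644 and 0.193 CPM (log2 fold change -0.53, SE 0.49, edgeR adjusted p 0.561). This entry (ENSMUSG00000118462.1) has an exon length of 2501 bases and no position in GENCODE M21. Whether it counts the hormone gene alone was not tested. Without L, 5 of the 7 hormone genes were called. Without B it was 1, without C 3, and without I edgeR called 0 at a median log2 fold change of 4.13.

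**Figure D1:**
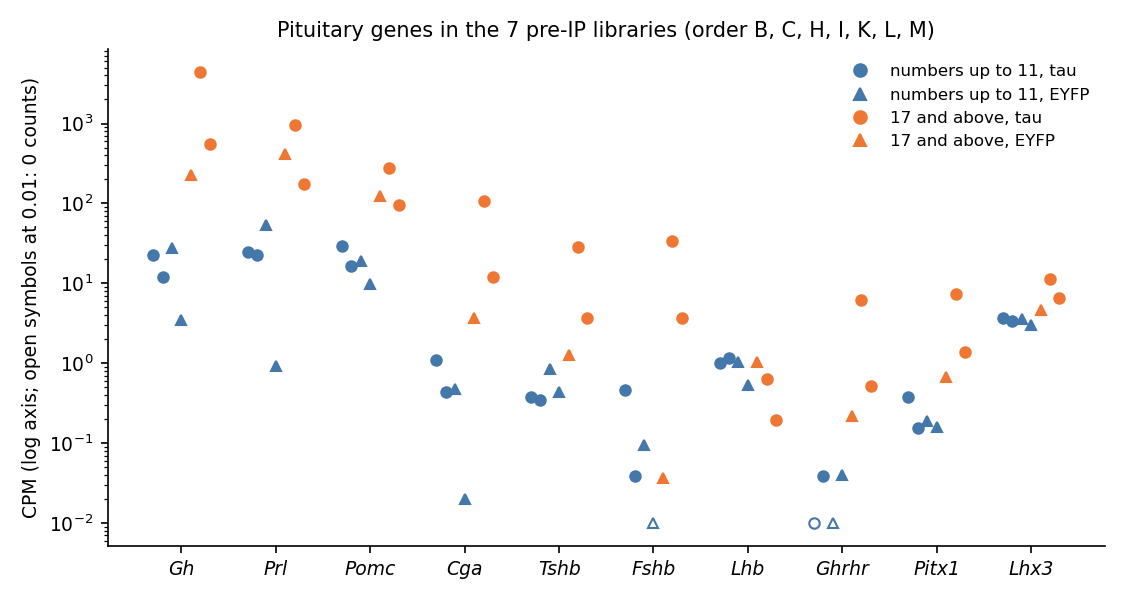
CPM on a log axis for 10 pituitary genes, with 1 symbol per pre-IP library in the order B, C, H, I, K, L, M; circles are tau and triangles EYFP animals, blue marks library numbers up to 11 and orange numbers of 17 and above, and open symbols stand for 0 counts. Gh, Prl, Pomc, Cga and Tshb show no overlap between the ranges and L is highest, whereas Fshb and Lhb overlap.

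Of 22 genes that mark the pituitary lineage, 19 passed the filter on low counts and 3 were called, all higher. The receptor of growth-hormone-releasing hormone, Ghrhr, had 0, 2, 0 and 2 counts in B, C, H and I and 12, 360 and 32 counts in K, L and M. Its log2 fold change was 6.19 (SE 1.17, edgeR adjusted p 0.0291), which rests on those few counts in the low-numbered libraries. Pitx1, a transcription factor of the early pituitary, had 0.154 to 0.377 CPM against 0.675, 7.29 and 1.39 CPM (log2 fold change 3.38, SE 0.64, edgeR adjusted p 0.0295). Lhx3, which is also needed for pituitary development, had 3.05 to 3.64 CPM against 4.67, 11.5 and 6.50 CPM. For Lhx3, edgeR gave 1.10 with SE 0.24 on the log2 scale (adjusted p 0.0368). That call was lost without M (edgeR adjusted p 0.0526), and also without B, C, H or I (0.0596 to 0.132). Pou1f1 itself did not pass the filter, being at 0 CPM in B, H and I and 0.0385 in C, against 0.146, 7.76 and 0.854 CPM in K, L and M. Prohormone and secretory granule genes that many neurons also express gave small differences, for example Chgb (0.15, edgeR adjusted p 0.520) and Scg2 (0.01, edgeR adjusted p 0.967) on the log2 scale. The median of the lineage list was 0.15. A further list, of folliculostellate and posterior pituitary genes, did not share the rise of the hormone genes. Of its 9 tested genes, 0 were called higher and 1 lower (Col25a1), at a median of 0.18.

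The summed CPM of the 7 hormone genes was 15.3 to 102.8 in the low-numbered libraries, 765 in K, 5848 in L and 850 in M. The part of pituitary RNA in the differences of other genes was not tested. The 10 genes with the largest increase among called genes without overlap were Ghrhr, Gh, Cga, Prl, Tshb, Pitx1, Fam83g, Pomc, Bpifa1 and Epcam. Epcam, an epithelial adhesion gene, had 0.0802 to 0.753 CPM against 0.912, 6.57 and 0.999 CPM, with L highest as for the hormones. Bpifa1, a secreted protein of airway epithelium, had at most 0.293 CPM against 0.876, 1.01 and 1.16 CPM, with no such lead of L.

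The thalamus is the relay between brainstem and cortex, and its excitatory neurons are marked by transcription factors such as TCF7L2 and by LEF1, a partner of the same signalling pathway. In the list of forebrain genes, 2 of 19 tested were called lower in the high-numbered libraries, 0 higher, and the median was -0.30 against 0.01 over all genes. The 2 were the thalamic markers Tcf7l2 and Rorb, whereas genes of cortex and striatum were not called. Tcf7l2 (chromosome 19, 55741820 to 55933654) had 182, 204, 232 and 214 CPM in B, C, H and I, and 76.1, 132 and 89.3 CPM in K, L and M. L lay between the other high-numbered libraries and the low-numbered ones. The log2 fold change was -1.02 (SE 0.17, edgeR adjusted p 0.0227). Rorb, a nuclear receptor gene of sensory relay neurons, had 17.6 to 20.6 CPM against 8.46, 11.3 and 9.04 CPM (log2 fold change -0.93, SE 0.13, edgeR adjusted p 0.0179). Without L, 6 forebrain genes were called lower and the median was -0.96. Without B, C, H, I, K or M in turn, between 0 and 2 were called by edgeR. Tcf7l2 was not called without K (-0.78, edgeR adjusted p 0.0533) or without M (-0.95, edgeR adjusted p 0.0527), whereas Rorb was called without either. Neither gene was called without B (edgeR adjusted p 0.0778 for both) or without I (0.0689 for Tcf7l2, 0.0569 for Rorb).

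Further genes with this profile were chosen after their values were seen. Gabra4, a GABA-A receptor subunit abundant in thalamus and striatum (chromosome 5, 71569749 to 71658308), had 64.4, 63.9, 65.4 and 63.4 CPM in B, C, H and I, and 14, 29.1 and 13.7 CPM in K, L and M. The 4 low-numbered libraries were nearly equal, and the log2 fold change was -1.75 (SE 0.22, edgeR adjusted p 0.0173). Prkcd, a protein kinase C gene strongly expressed in thalamic relay neurons, had 137 to 185 CPM against 31.0, 108 and 28.3 CPM (log2 fold change -1.69, SE 0.36, edgeR adjusted p 0.0368). Here L was much closer to the low-numbered libraries than K and M were. Lef1 had 17.3 to 18.6 CPM against 3.08, 10.6 and 3.87 CPM, and Tnnt1 had 34.6 to 50.2 CPM against 7.59, 26.3 and 8.90 CPM, in the same order of libraries. Prkcd, Lef1 and Tnnt1 were not called without K or without M (edgeR adjusted p 0.0508 to 0.0873), nor without B, H or I (0.0555 to 0.108). Without C, Lef1 was called (edgeR adjusted p 0.0493), and Prkcd (0.0568) and Tnnt1 (0.0534) were not. Gabra4 was called without K and without M. Gabra4 lost its call without B (edgeR adjusted p 0.077) and without I (0.0569).

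The orphan receptor gene Rora, which thalamic and Purkinje neurons express, had 68.2 to 81.9 CPM against 26, 42.4 and 27.8 CPM (log2 fold change -1.24, SE 0.14, edgeR adjusted p 0.0167). Ntng1, which encodes the axonal protein netrin-G1 of thalamocortical neurons, had 38.8 to 44.4 CPM against 18.1, 24 and 17.8 CPM (log2 fold change -1.06, SE 0.13, edgeR adjusted p 0.0173). Slitrk6 had 3.06 to 4.51 CPM against 0.657, 1.29 and 0.935 CPM (log2 fold change -1.95, SE 0.27, edgeR adjusted p 0.0179). The neuropeptide gene Cck had 104 to 138 CPM against 56.4, 95.9 and 58.7 CPM, and the transcription factor gene Shox2 had 30.1 to 36.9 CPM against 14.2, 22.9 and 14.7 CPM. Each of these genes had its 7 libraries in separate ranges, with L the highest of the high-numbered ones. They were picked with this profile in view, and 2919 of all 19197 genes tested were likewise lower without overlap. Rora, Ntng1 and Slitrk6 were called without K and without M, while Cck and Shox2 were not called without K or without M (edgeR adjusted p 0.0694 to 0.0748). Cck and Shox2 also lost their calls without B, C or I (edgeR adjusted p 0.0534 to 0.0986), and Shox2 without H (0.0541). Rora, Ntng1 and Slitrk6 lost their calls without B (edgeR adjusted p 0.077 to 0.0778) and without I (0.0569 each).

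Otx2, a homeobox gene of forebrain, midbrain and choroid plexus that the hindbrain lacks, was placed in the choroid plexus list but did not follow the other genes of it. It had 11.7, 12.7, 10.7 and 10.1 CPM in B, C, H and I, and 5.36, 5.20 and 4.55 CPM in K, L and M. The 3 high-numbered libraries were alike and all lower, with a log2 fold change (SE) of -1.10 (0.15; edgeR adjusted p 0.0179). Col25a1, a brain collagen gene, was placed in the folliculostellate and posterior pituitary list. It had 9.54 to 11.8 CPM against 4.6, 6.14 and 5.19 CPM (log2 fold change -0.97, SE 0.14, edgeR adjusted p 0.0179). The 19 tested Hox genes, which pattern the hindbrain and spinal cord, gave 0 edgeR calls at a median of 0.32, with 15 positive values. The midbrain list had a median of -0.09, with 10 of 17 values negative, yet its 2 called genes were higher. They were Gata2 (log2 fold change 0.84, SE 0.14, edgeR adjusted p 0.0231) and Pax8 (0.81, SE 0.20, edgeR adjusted p 0.0498). The ranges of Pax8 overlapped, with 10.2 CPM in both B and L. The dopamine transporter gene Slc6a3 had 33.9 to 43.2 CPM against 27.3, 35.4 and 20.3 CPM without a call (edgeR adjusted p 0.159).

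The cerebellum was represented by lists of granule cells, its most numerous neurons, and of Purkinje cells, its output neurons. Of 15 granule cell genes, 4 were called lower and 0 higher, at a median of -0.51. The granule cell transcription factor gene Zic1 had 10.5 to 14.1 CPM against 3.54, 7.51 and 3.21 CPM (log2 fold change -1.28, SE 0.25, edgeR adjusted p 0.0306). Gabra6, a GABA-A receptor subunit nearly confined to granule cells, had 15.1, 15.7, 14.6 and 7.36 CPM in B, C, H and I and 3.65, 7.79 and 2.13 CPM in K, L and M. I lay below L, so the ranges overlapped, and edgeR called it at a log2 fold change of -1.55 (SE 0.36, adjusted p 0.0440). The others were Neurod1 (-1.31, SE 0.31, edgeR adjusted p 0.0474) and Etv1 (-0.51, SE 0.09, edgeR adjusted p 0.0273). The granule cell gene Cbln3 overlapped, with 21.3 to 42.3 CPM against 13.4, 30.8 and 8.85 CPM.

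Of 14 Purkinje cell genes, 3 were called lower and 0 higher, at a median of -0.39. Calb1, a calcium buffer, had 156, 170, 85.3 and 117 CPM in B, C, H and I and 66.1, 79.8 and 49.1 CPM in K, L and M, a log2 fold change (SE) of -0.97 (0.21; edgeR adjusted p 0.0356). The calcium channel gene Itpr1 was also lower (-0.57, SE 0.13, edgeR adjusted p 0.0416), and both are expressed outside the cerebellum too. Pcp2, which is specific to Purkinje cells, had 15 to 29.8 CPM in the low-numbered libraries, 6.06 in K and 3.05 in M, but 23.8 in L, and it was not called (edgeR adjusted p 0.152). Without L, 6 granule and 6 Purkinje genes were called lower. With any other single library left out, edgeR called 0 granule cell genes and at most 1 Purkinje gene, at granule medians of -0.63 to -0.37.

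**Figure D2:**
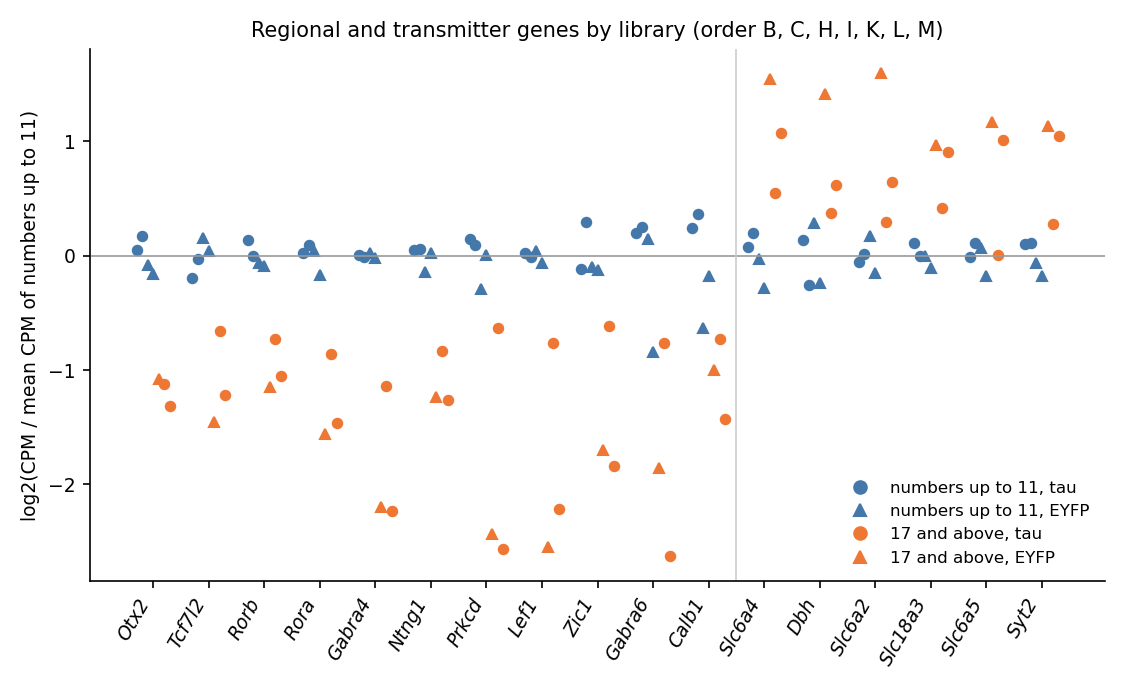
The log2 ratio of CPM to the mean CPM of the low-numbered libraries for 11 genes called lower and 6 called higher, with 1 symbol per pre-IP library in the order B, C, H, I, K, L, M; circles are tau and triangles EYFP animals, blue is library numbers up to 11 and orange 17 and above. Among the high-numbered libraries, L lies nearest to 0 for Tcf7l2, Gabra4, Prkcd and Lef1, and also for Slc6a4, Slc6a5 and Syt2, while Otx2 is alike in all 3.

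The choroid plexus, the epithelium of the ventricles that makes cerebrospinal fluid, behaved otherwise. All 14 genes of the list had negative log2 fold changes, at a median of -0.98, but only Otx2 was called. Transthyretin (Ttr), its most abundant secreted protein, had 1595, 1255, 835 and 763 CPM in B, C, H and I, 1272 CPM in K, and 116 and 23.3 CPM in L and M. K was thus among the low-numbered libraries, and L and M, both tau animals, were far below. The potassium channel subunit gene Kcne2 had 14, 12.7, 9.70 and 3.85 CPM in B, C, H and I and 9.58, 0.696 and 0.290 CPM in K, L and M, and the channel gene Kcnj13 had 3.07 to 5.19 CPM against 5.38, 1.04 and 0.645 CPM. Without K, all 14 genes were called lower at a median of -2.62, the Ttr log2 fold change being -4.36 (edgeR adjusted p 0.00468). In the tau animals alone, where B and C were set against L and M, 6 of the 14 were called lower. Without M the median of the list was -0.37, and without L it was -0.63, with only Otx2 called in both.

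**Figure D3:**
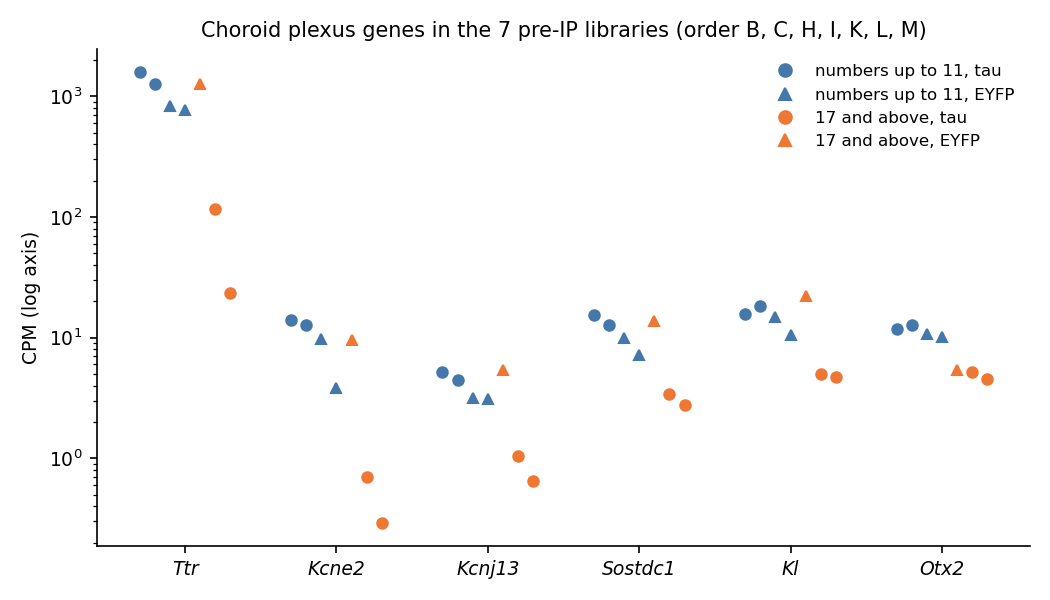
CPM on a log axis for 6 choroid plexus genes, with 1 symbol per pre-IP library in the order B, C, H, I, K, L, M; circles are tau and triangles EYFP animals, blue is library numbers up to 11 and orange 17 and above. For 5 of the genes K lies with the low-numbered libraries and L and M lie below, whereas Otx2 is low in all 3 high-numbered libraries.

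Of the monoaminergic and motor neuron genes a minority was called, each of them higher in the high-numbered homogenates. None of the serotonergic, noradrenergic, motor or glycine and GABA genes was called by edgeR without K, nor without M. The loss was not confined to K and M. Slc6a4, Dbh, Slc6a2, Slc18a3 and Slc6a5 were also not called without B, H or I (edgeR adjusted p 0.0586 to 0.126). The serotonin transporter gene Slc6a4 (chromosome 11, 76998603 to 77032340) had 14.3, 15.6, 13.3 and 11.2 CPM in B, C, H and I, and 39.7, 19.9 and 28.7 CPM in K, L and M. K was highest and L lowest of the high-numbered libraries, with no overlap, and the log2 fold change was 1.19 (SE 0.21, edgeR adjusted p 0.0250). Without K it was 0.74 (edgeR adjusted p 0.0876), and without M 1.18 (edgeR adjusted p 0.0539). It was the only call of 9 serotonergic genes (median 0.51). Tph2, which makes serotonin, overlapped, with 20.2 to 28.5 CPM against 62.2, 22.8 and 40.8 CPM (log2 fold change 0.86, SE 0.27, edgeR adjusted p 0.0847).

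Of 12 noradrenergic genes, 2 were called higher and 0 lower, at a median of 0.22. Dopamine beta-hydroxylase (Dbh), which makes noradrenaline, had 10.9, 8.31, 12.1 and 8.40 CPM in B, C, H and I, and 26.5, 12.9 and 15.2 CPM in K, L and M (log2 fold change 0.96, SE 0.20, edgeR adjusted p 0.0352). Slc6a2, the noradrenaline transporter, had 4.83 to 6.05 CPM against 16.2, 6.57 and 8.40 CPM (log2 fold change 1.03, SE 0.22, edgeR adjusted p 0.0370). In both, K was far above the rest and L just above the low-numbered libraries. Without K the Dbh log2 fold change was 0.58 (edgeR adjusted p 0.167) and that of Slc6a2 0.54 (edgeR adjusted p 0.198). Tyrosine hydroxylase (Th), which dopamine neurons share, had 53.3 to 81.0 CPM against 64.0, 66.2 and 51.3 CPM (log2 fold change -0.11, SE 0.15, edgeR adjusted p 0.707).

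In the list of cholinergic and motor neuron genes, 3 of 12 were called higher and 0 lower, at a median of 0.60. The vesicular acetylcholine transporter gene Slc18a3 had 24.5 to 28.5 CPM against 51.8, 35.3 and 49.6 CPM (log2 fold change 0.87, SE 0.14, edgeR adjusted p 0.0229), which became 0.67 (edgeR adjusted p 0.0892) without K and 0.78 (edgeR adjusted p 0.0597) without M. The others were Prph, an intermediate filament of neurons with long peripheral axons (0.65, SE 0.13, edgeR adjusted p 0.0300), and the receptor tyrosine kinase gene Ret (0.52, SE 0.11, edgeR adjusted p 0.0323). The ranges of Ret overlapped, with 42.1 and 44.2 CPM in L and M below 46.7 CPM in H. The glycine transporter gene Slc6a5 had 35.9 to 43.7 CPM in the low-numbered libraries, 91.2 in K and 82.0 in M, but 40.6 in L (log2 fold change 0.90, SE 0.22, edgeR adjusted p 0.0478). Without K it was 0.59 (edgeR adjusted p 0.234), and without M 0.71 (edgeR adjusted p 0.153). Of 10 glycine and GABA genes, 2 were called higher and 2 lower. The vesicular GABA transporter gene Slc32a1 rose by 0.59 (SE 0.15, edgeR adjusted p 0.05), while the GABA-synthesis gene Gad2 was lower (-0.50, SE 0.11, edgeR adjusted p 0.0352).

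Synaptic genes were called in both directions. The calcium sensor gene Syt2, typical of fast hindbrain and spinal synapses, had 168 to 205 CPM against 415, 230 and 392 CPM (log2 fold change 0.94, SE 0.19, edgeR adjusted p 0.0306). Without K it was 0.64 (edgeR adjusted p 0.136), and without M 0.82 (edgeR adjusted p 0.0948). Syt2 was also not called without B, C, H or I (edgeR adjusted p 0.0594 to 0.0952). Syt1, the form that prevails in the forebrain, had 244 to 285 CPM against 155, 178 and 151 CPM (log2 fold change -0.68, SE 0.11, edgeR adjusted p 0.0216). Vamp1, the vesicle fusion protein gene that prevails in brainstem and spinal cord, rose by 0.56 (SE 0.12, edgeR adjusted p 0.0368). Of 14 genes in that list, 2 were called higher and 3 lower, at a median of -0.18. Other genes of neuronal membrane and matrix were chosen after their values were seen. The sodium channel subunit gene Scn4b had 244 to 286 CPM against 460, 344 and 470 CPM, and the perineuronal matrix gene Hapln4 192 to 211 CPM against 339, 250 and 340 CPM. Pvalb, a marker of fast-firing neurons, had 416 to 526 CPM against 475, 519 and 472 CPM (log2 fold change 0.07, SE 0.12, edgeR adjusted p 0.765).

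Glial and vascular lists had few calls, all higher. Without K edgeR called 0 genes of the oligodendrocyte, astrocyte, endothelial, pericyte, meningeal, peripheral nerve and muscle lists, and without M it called 1 meningeal and 1 peripheral nerve gene. The oligodendrocyte genes Myrf and Mag were also not called without B, C, H or I (edgeR adjusted p 0.0541 to 0.119). In oligodendrocytes, 2 of 16 genes were called, the myelin transcription factor gene Myrf (74.2 to 92.6 CPM against 125, 108 and 121 CPM, log2 fold change 0.61, SE 0.10, edgeR adjusted p 0.0216) and the myelin adhesion gene Mag (0.67, SE 0.15, edgeR adjusted p 0.0428). In astrocytes it was 2 of 18, the GABA transporter gene Slc6a11 (0.50, SE 0.10, edgeR adjusted p 0.0323) and Fgfr3 (0.56, SE 0.13, edgeR adjusted p 0.0420). The ranges of Fgfr3 overlapped, with 151 CPM in L below 162 CPM in H. Endothelial calls were the lipid transporter gene Mfsd2a (0.67, SE 0.14, edgeR adjusted p 0.0352) and the glucose transporter gene Slc2a1 (0.50, SE 0.12, edgeR adjusted p 0.0452), 2 of 16. Pericyte and smooth muscle calls were Pdgfrb (0.68, SE 0.15, edgeR adjusted p 0.0359) and Acta2 (0.59, SE 0.14, edgeR adjusted p 0.0453), 2 of 12. Meningeal and matrix calls were Col1a2 (0.83, SE 0.17, edgeR adjusted p 0.0339) and Col6a3 (0.90, SE 0.20, edgeR adjusted p 0.0397), 2 of 20. Of 10 peripheral nerve genes, 2 were called. Of 13 muscle, bone and cartilage genes, Acan was called (0.78, SE 0.19, edgeR adjusted p 0.0474).

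The lists of microglia and macrophages (20 tested), neutrophils and monocytes (10), lymphocytes (10), red blood cells (10) and interferon and MHC genes (20) gave 0 edgeR calls, at medians of 0.08, -0.12, 0.08, -0.11 and 0.34. The immediate early genes (22) and the glucocorticoid response genes (17) also gave 0, at medians of 0.13 and 0.18, and their members with the smallest p were Arc (0.47, SE 0.12, edgeR adjusted p 0.0537) and Arrdc2 (0.56, SE 0.15, edgeR adjusted p 0.0602). Cytosolic ribosomal proteins (77) and nuclear genes of oxidative phosphorylation (75) gave 0, at medians of -0.12 and -0.05. Ependyma had 1 lower call of 12, the ciliary gene Rsph4a (-1.05, SE 0.25, edgeR adjusted p 0.0453). Over all lists, 58 of 657 listed genes that were tested were called (8.83%), 34 higher and 24 lower, beside 3.65% of all genes. The lists were chosen with earlier results of these libraries known, so this share is a description.

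Of 11 mitochondrially encoded genes, 2 were called lower and 0 higher, at a median of -0.45. The cytochrome oxidase gene mt-Co1 had 2542, 2046, 2543 and 1952 CPM in B, C, H and I, and 1155, 1305 and 1443 CPM in K, L and M (log2 fold change -0.76, SE 0.13, edgeR adjusted p 0.0250), with no overlap. It was not called without K (-0.71, edgeR adjusted p 0.0660) or without M (-0.81, edgeR adjusted p 0.0526), nor without B, H or I (edgeR adjusted p 0.0541 to 0.1). The other was mt-Cytb (-0.68, SE 0.12, edgeR adjusted p 0.0270). The 16 circadian genes had a median of 0.12, with 10 positive values and 3 calls, all lower. The 2 activators Bmal1 (-0.56, SE 0.11, edgeR adjusted p 0.0306) and Clock (-0.68, SE 0.14, edgeR adjusted p 0.0318) and the output factor Hlf (-0.48, SE 0.10, edgeR adjusted p 0.0353) were lower, whereas their targets Per1 (0.17, edgeR adjusted p 0.522) and Dbp (0.10, edgeR adjusted p 0.677) were not called. Malat1, a long nuclear RNA, had 101 to 136 CPM against 74.3, 74.9 and 68.5 CPM (log2 fold change -0.65, SE 0.11, edgeR adjusted p 0.0250).

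The largest decreases among called genes without overlap were in Ostn, Cdx1, Edaradd, Fam237b and 6 genes without an established name (Gm15478, 9330185C12Rik, Gm13544, E030013I19Rik, Gm32219 and C030013G03Rik). All 10 were at 3.18 CPM or less in every homogenate. Edaradd, an adaptor of ectodysplasin signalling, had 71 to 115 counts in the low-numbered libraries and 6, 30 and 4 in K, L and M (log2 fold change -3.11, SE 0.57, edgeR adjusted p 0.0273). Ostn had 6 to 39 counts against 0, 5 and 0, so its log2 fold change of -3.91 rests on few counts.

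**Figure D4:**
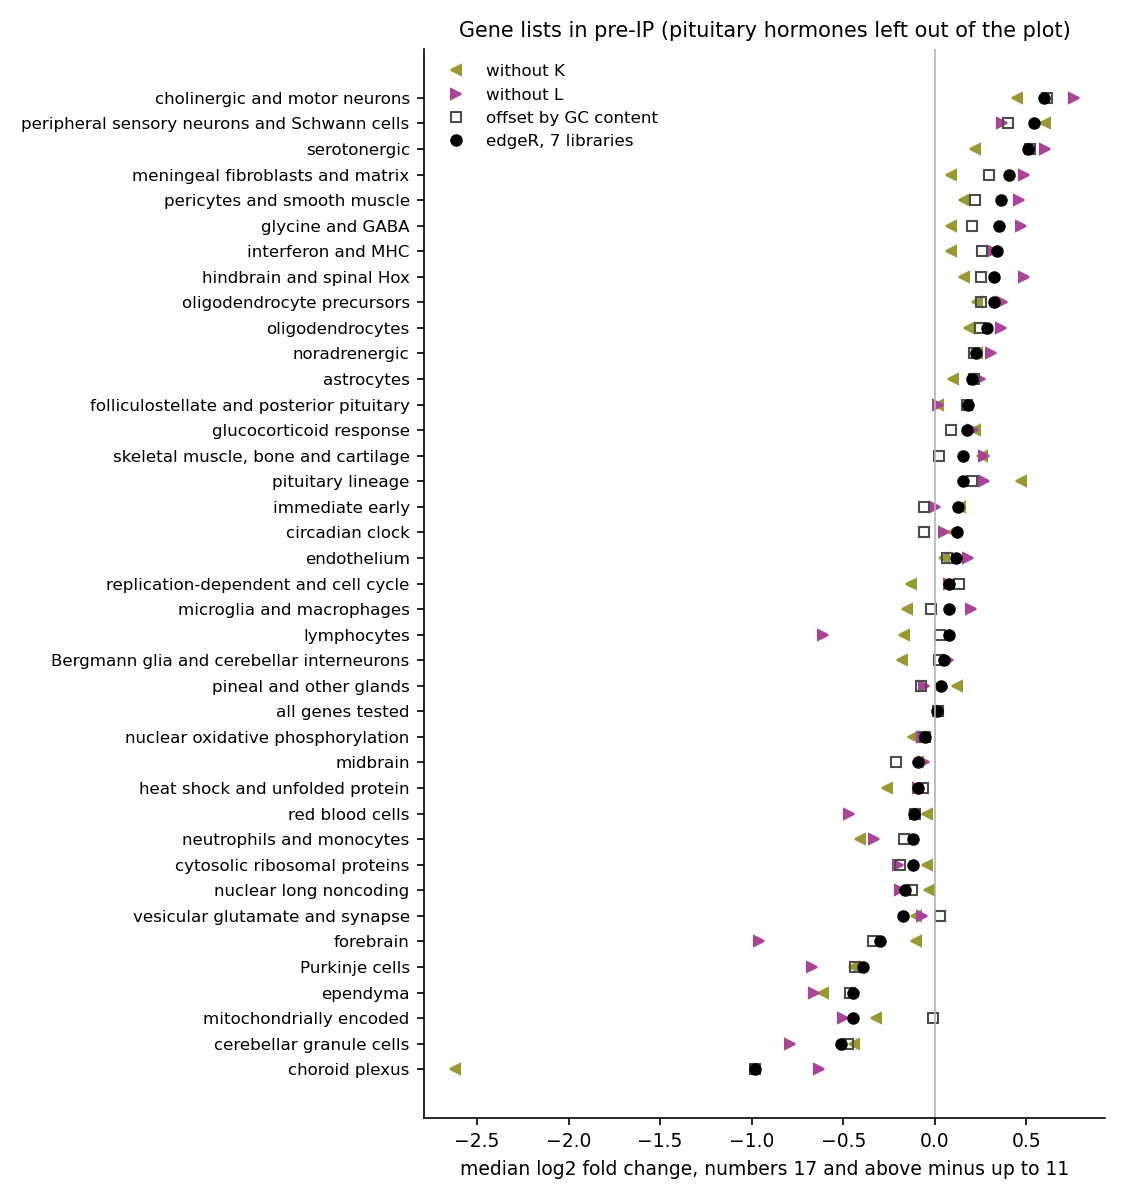
The median log2 fold change (high-numbered minus low-numbered libraries) of 38 gene lists and of all genes tested, as black circles, with open squares for the fit offset by GC content and triangles for the fits without K (left-pointing) or without L (right-pointing). The choroid plexus median moves from -0.98 to -2.62 without K, the forebrain median from -0.30 to -0.96 without L, and the mitochondrially encoded median from -0.45 to -0.01 with the GC offset; the pituitary hormones, at 4.41, are off the plot.

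The base composition of transcripts moved with the library range, and its part in the differences above was not tested beyond the offset given here. Genes were sorted into 5 bins of equal size by the GC content of their longest transcript, which was known for 97.7% of the genes tested. The median log2 fold change rose from -0.32 in the bin with least GC through -0.10, 0.05 and 0.16 to 0.19 in the bin with most. Of the 426 genes called lower, 301 were in the lowest bin, and of the 275 called higher, 147 were in the highest. The median GC content was 41.8% for genes called lower, 55.9% for genes called higher and 49.8% for all. The lowest bin took 12.9 to 13.8% of the counts in the low-numbered libraries and 10.3 to 11% in the high-numbered ones, without overlap. In the IP libraries of the same animals these bin medians lay between -0.04 and 0.07.

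**Figure D5:**
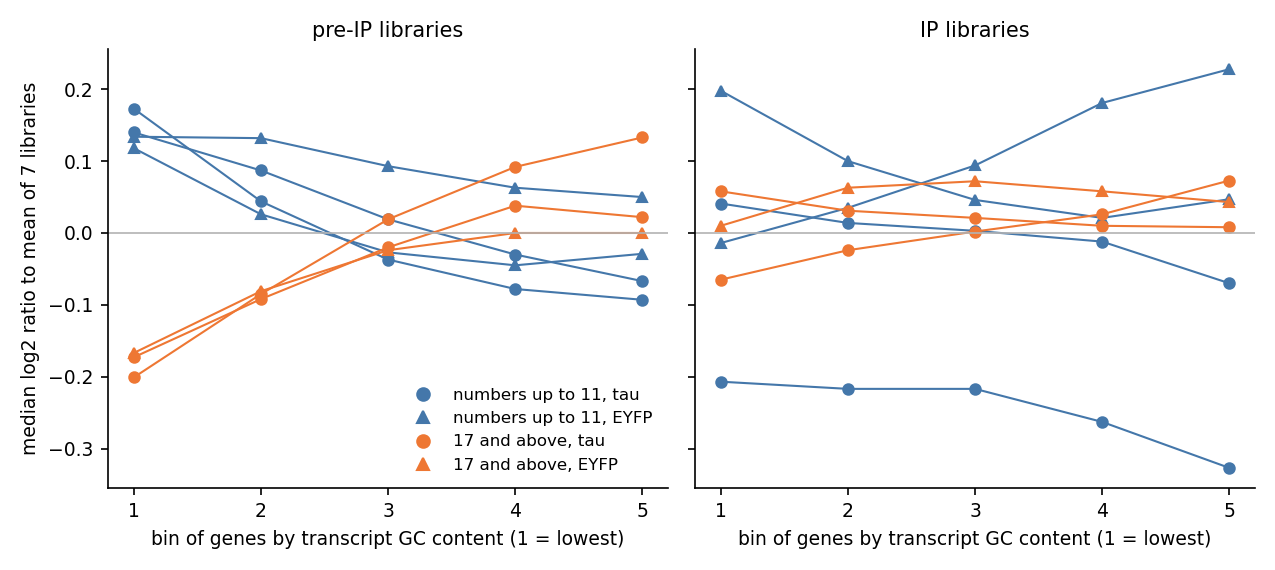
The median log2 ratio of each library to the mean of the 7 libraries of its fraction, over genes in 5 bins of transcript GC content (1 is lowest), for pre-IP at left and IP at right; circles are tau and triangles EYFP animals, blue is library numbers up to 11 and orange 17 and above. In the lowest bin the low-numbered homogenates lie between 0.118 and 0.173 and the high-numbered ones between -0.201 and -0.167, while the IP libraries of the ranges overlap.

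When a smooth curve of each library against GC content was taken out as an offset, a step chosen after seeing the data, edgeR called 32 genes, 12 higher and 20 lower (0.167%). These include Pomc (log2 fold change 2.91, adjusted p 0.00667), Gh (5.91, 0.0359) and Cga (5.87, 0.0287) among the hormones. The lower ones include Otx2 (-1.01, edgeR adjusted p 0.0329), Tcf7l2 (-0.95, 0.0484), Ntng1 (-0.95, 0.0287), Rora (-0.91, 0.0484), Gabra4 (-1.47, 0.0345), Cck (-1.04, 0.0323), Shox2 (-0.91, 0.0484) and Col25a1 (-0.97, 0.0329). No gene of the serotonergic, noradrenergic, motor, glial, vascular, mitochondrial or circadian lists was called by edgeR with the offset. Medians of these lists changed unevenly: the cholinergic and motor median was 0.61 with it and 0.60 without, whereas the mitochondrial median moved from -0.45 to -0.01, with mt-Co1 at -0.38 (edgeR adjusted p 0.283).

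The same contrast in the IP libraries of the same animals gave 0 of 19472 genes called by edgeR (0%), 1377 at an unadjusted p under 0.05 (7.07%), and 115 by the Wald test of DESeq2. In the homogenates 4492 genes had an unadjusted p under 0.05 (23.4%). The interaction of fraction and range tests whether the ranges differ unequally in homogenate and IP. It gave 0 of 20495 genes by edgeR (0%), also with the animal as a block. At an unadjusted p under 0.05 it gave 1145 (5.59%), and DESeq2 called 5. In simulated counts, edgeR recovered 15% of 2-fold changes in IP and 9% for the interaction, against 61% in homogenate. The 0 calls therefore do not show that the ranges were alike in IP. Gh in IP had 12.2, 8.20, 33.4 and 11.7 CPM in B, C, H and I, and 259, 3311 and 558 CPM in K, L and M, 6.24 higher on the log2 scale (edgeR adjusted p 0.599). The order of the high-numbered animals was as in the homogenate.

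Of the 275 genes called higher in homogenate, 273 were tested in IP and 247 had a positive log2 fold change there (median 0.50). Of the 426 called lower, 425 were tested and 324 had a negative one (median -0.20). Over all 18689 genes tested in both fractions, 9767 were positive in IP. The fractions come from the same animals, so this does not add independent replicates. Some genes differed in sign, without a call of the interaction. Dbh and Slc6a2 had log2 fold changes (SE) of -0.51 (0.62) and -0.61 (0.64) in IP, and mt-Co1 and mt-Cytb of 0.56 (0.38) and 0.49 (0.34). None of these was called in IP (edgeR adjusted p 0.772 to 0.867), so their signs there are not settled. Dbh in IP ran from 29.2 CPM in I to 1292 CPM in B, both low-numbered. Gabra4 (-1.02), Prkcd (-1.74) and Slitrk6 (-1.40) had the same sign in IP as in homogenate, also without a call in IP (edgeR adjusted p 0.656 to 0.709).

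Measures on the sample sheet were compared by 2-sided exact permutation tests over 35 splits of 4 against 3, whose smallest possible p is 0.0286. The RNA integrity number was 7.85 ± 0.129 (SD, n = 4) in low-numbered and 8.23 ± 0.115 (SD, n = 3) in high-numbered homogenates (exact p 0.0286). RNA concentration was 23.3 ± 6.07 ng per microlitre (SD, n = 4) against 12.4 ± 1.34 (SD, n = 3), without overlap (exact p 0.0571). The GC percent of the reads was 52.08 to 52.14 against 52.56 to 52.74 (exact p 0.0286), and total counts and raw reads were also higher without overlap (exact p 0.0286 each). Over the 9 measures compared, the smallest exact permutation p adjusted by Benjamini-Hochberg was 0.0643. Depth, integrity and concentration thus moved with the library range, and their part in the gene differences was not tested.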

How the data were processed

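RNA of 14 libraries was sequenced, and the 7 pre-IP homogenates are compared here by the range of their library numbers. Per the labels' protocols, SMART-Seq and Nextera XT kits turned polyadenylated RNA into libraries. Per the submitters' processing notes, FastQC, Trim Galore, STAR and featureCounts were used with GRCm38 (mm10), and versions, strand setting and the treatment of multi-mapped reads are not given in the sources used here. The deposited counts are whole numbers of reads for each gene and are not normalized. The deposited sample sheet gives RNA concentration, the RNA integrity number (a score of RNA quality), raw reads and, per the file headers, the percent of reads past the Q20 and Q30 quality limits and the percent of GC. The same sheet, as deposited, lists the animal, fraction and treatment of each library, used as other labels to read it. The columns of the count table were read by position because its header has stray empty cells, and the tau row equals the sample sheet (0 mismatches).

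Symbols came from the deposited gene table or, for 3755 identifiers, from GENCODE M21. The quasi-likelihood test of edgeR 4.0.16 (R 4.3.3) was run with treatment and range as terms, genes kept by filterByExpr, trimmed mean of M-values (TMM) scaling and Benjamini-Hochberg adjustment over all genes, at 0.05. The log2 fold changes are high-numbered minus low-numbered and kept the default prior count of edgeR. A prior count of 2 entered the log2 CPM behind the principal components, the correlations and the offset curves, not these fold changes. The interaction used all 14 libraries. Deviations of the fractions of an animal correlated by 0.06 to 0.314, and the animal pairs them by label. Alternatives used DESeq2 1.42.0, limma 3.58.1 voom, other filters, covariates and left-out libraries. The GC and length offsets were chosen after seeing the data. The fits were tested on simulated counts.

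Members and gene lists were chosen with earlier results of these data known. Named genes were the 10 largest changes in each direction among called genes without overlap, 7 hormone genes, up to 3 called members per list with the smallest p (otherwise the member with the smallest p), and Dbh, Th, Mapt and Xist. Other genes were named after their values were seen: those described as such, and the uncalled list members given beside called ones. Some genes that this rule names are not reported here. Motifs were searched on both strands of RefSeq promoters, and TATNCAT and TATAAA matches were counted with overlap. P-values measure the spread between these animals.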

Additional observations from a re-analysis of the deposited data

Results flagged for a closer look

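In the low-numbered homogenates, 94 sets of 4 values (named genes and library measures) were checked for a library far from the others, and chance flags about 1 in 20 such sets. It was found in 6. Pitx1 in B was 0.377 CPM, above the other low-numbered libraries. Zic1 in C was 14.1 CPM, above the other 3. Gabra6 in I was 7.36 CPM, Arc in I was 63.3 CPM and Clock in I was 8.62 CPM, each below the other 3. The GC percent of reads in C was 52.08, below the other 3.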

How the results depend on the processing

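Against 701 calls in homogenate, the count was 2030 by the Wald test of DESeq2, 2341 by limma voom and 2036 with no filter on low counts. It was 16 with the sex label as a covariate, 12 in tau animals only, 1 in a single fit of all 14 libraries, 1 when a change beyond 1.5-fold was tested, and 32 with the GC offset, and the cause was not tested. Leaving out 1 library gave 1 to 1190 calls. Calls stayed within 1.5 times with size factors of DESeq2 (604), a mean of at least 50 counts (948), no treatment term (905), robust estimation (921) and the length offset (781). In IP the count of 0 became 115 by DESeq2 and 495 with no filter, and 0 to 2 without 1 library. For the interaction, 0 became 5 by DESeq2 and 36 with no filter, and it was 0 with the animal as a replicate block and without each animal. None of the 67 named genes that were called reversed its sign. With robust estimation, Gh (adjusted p 0.124) and Prl (adjusted p 0.178) were not called by edgeR while Pomc was (adjusted p 0.0493). Differences of medians were 0.45 for the integrity number, 10771230 raw reads, 8669494 total counts and 0.445 for GC percent, with exact permutation p-values no longer under 0.05. Without 1 library these differences ran from 0.333 to 0.45, 9163941 to 13990320, 8234376 to 11894763 and 0.447 to 0.537, where fewer splits do not allow a p under 0.05. Genes under the floor of 3 counts cannot be told from absent ones.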

Other observations

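Some genes varied strongly between the homogenates without following the library ranges. The hypothalamic hormone genes Avp and Oxt were high in C, I and L in both ranges. Avp had 3.43, 51.2, 15.1 and 29.9 CPM in B, C, H and I, and 0.657, 47.1 and 0.355 CPM in K, L and M. Oxt had 2.68, 33.7, 11.6 and 22.8 CPM in B, C, H and I, and 0.164, 23.7 and 0.193 CPM in K, L and M. Lhx6, a transcription factor gene of forebrain interneurons, was at 7.44, 7.48 and 7.17 CPM in C, I and L, at 2.29 CPM in H and at 0.355 to 0.711 CPM in B, K and M. The same animals were high in IP, where Avp had 48.2, 72.9 and 42.9 CPM in C, I and L and 0.612 to 27.7 CPM in the others. The striatal receptor gene Drd1 had 6.17, 3.93 and 5.95 CPM in C, I and L and 1.20 to 2.77 CPM in the others.

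For 2 further genes the animals fell into separate levels that were the same in both fractions. Wdfy1 had 48.2, 54.7 and 43.7 CPM in B, C and H but 13.2 CPM in I, and 11.7, 14.1 and 14.4 CPM in K, L and M, so that I stood with the high-numbered libraries (log2 fold change -1.54, SE 0.31, edgeR adjusted p 0.0306). Without I it was the single gene past the threshold (-1.78, edgeR adjusted p 0.00104). In IP it had 35.6, 57.6 and 37.5 CPM in B, C and H and 13.3 to 17.2 CPM in I, K, L and M. The mitochondrial gene mt-Nd3 had 5.67, 5.57 and 6.43 CPM in I, L and M, and 0.0837 to 0.192 CPM in B, C, H and K. In IP it had 2.71, 2.82 and 6.64 CPM in I, L and M and at most 0.305 CPM in the others. These levels cross treatment, and they were noticed after the values were seen.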
